A study of Homo sapiens with 2 samples.

Results

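The miR-17-92a-1 cluster is a run of 6 microRNA (miRNA) hairpins on chromosome 13, and its loci were taken by name from a table of small RNA counts in the human breast epithelial line MCF10A. The names miR-17, miR-18a, miR-19a, miR-19b, miR-20a and miR-92a, with any arm or copy suffix, gave 8 of the 947 loci in the table, among them hsa-miR-17-5p, hsa-miR-18a-5p and hsa-miR-20a-5p (the prefix hsa is left out below). Of these, 6 lie on chromosome 13 and 2 are copies of miR-19b and miR-92a on chromosome X. The chromosome X copies had the same counts as their chromosome 13 copies in all 6 libraries, so the 8 loci hold 6 separate measurements.

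MCF10A does not form tumours, and withaferin A is a plant steroidal lactone from Withania somnifera. Untreated cells (n = 3 libraries) were compared with cells kept for 24 h in withaferin A at 2 µM (n = 3 libraries). No vehicle is named for the untreated cells. The 3 libraries of a group belong to 1 sample record, and nothing says that they came from separate cultures, so the spread behind each p-value is that of these libraries alone and may be technical. The labels name the QIAseq and NEBNext small RNA kits and, read in their order, give the first to the untreated group and the second to the treated one, so a difference between kits and one between treatments cannot be told apart.

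The untreated libraries held 1855838 to 2615684 counts, and the withaferin A libraries held 340 to 430, or 1188 in all. Over the summed withaferin A libraries a locus at 0 may still hold up to 0.253% of counts (3 counts), and this level is called the floor below. Only 52 of the 947 loci lay above the floor in untreated cells. All 6 listed miRNAs of basal or mammary epithelium were in the table, with 9.11 to 9.46% of counts in untreated and 29.1 to 37.7% in withaferin A libraries. The latter counts came from 3 of the 6, nearly all from miR-205-5p and a few from miR-221-5p and miR-31-5p, and the other 3 had 0 counts after withaferin A. Lists from blood, mesenchyme, and liver and muscle each took at most 0.00793% in an untreated library and had 0 counts after withaferin A. Shares are relative, so a rise of some loci lowers the summed share of the rest, and the part of this in the values below was not tested. In bulk RNA, fewer cells of a type and less RNA per cell cannot be told apart.

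All 6 mature miRNAs are cut from 1 primary transcript, that of the long non-coding host gene MIR17HG, which the transcription factors MYC and E2F1 are known to induce. The cluster is known as an oncogenic, growth-promoting one, and several members lie above normal in many carcinomas. A miRNA finds its targets mainly by its seed, bases 2 to 8 from the 5′ end. The miR-17 seed is known to repress CDKN1A and E2F1, miR-18a to repress CCN2, and the miR-92 seed to repress BCL2L11.

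The mature sequences below, from RefSeq (GRCh38.p14), are shown because members and relatives are grouped by seed below; each is the arm usually held to be the active one, written 5′ to 3′ with the seed in capitals. The cluster holds 4 seeds.
miR-17-5p: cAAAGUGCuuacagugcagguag
miR-20a-5p: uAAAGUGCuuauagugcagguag
miR-18a-5p: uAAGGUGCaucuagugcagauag
miR-19a-3p: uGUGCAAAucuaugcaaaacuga
miR-19b-3p: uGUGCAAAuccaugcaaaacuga
miR-92a-3p: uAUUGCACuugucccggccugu

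Counted from 1 at the 5′ end and with the miR-17-5p base first, miR-20a-5p differs from miR-17-5p at 2 of 23 positions, C1U and C12U, both outside the seed. miR-18a-5p differs from miR-17-5p at 6 of 23 positions, with 1 of them, A4G, in the seed. miR-19a-3p and miR-19b-3p differ at 1 position, U11C. The 6 hairpins lie within 787 bases on the plus strand at chr13:91350605-91351391, in the order miR-17, miR-18a, miR-19a, miR-20a, miR-19b-1 and miR-92a-1, and the gaps between neighbours are 35 to 92 bases. In GENCODE release 29, each hairpin overlaps an exon of 2 MIR17HG transcripts and lies in an intron of 1 other transcript that spans it.

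The table names miR-19a, miR-19b and miR-92a by their 5p arm, which is not the arm printed above. The 5p sequences of the copies are shown next because they bear on which reads these loci hold.
miR-92a-1-5p: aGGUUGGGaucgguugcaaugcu
miR-92a-2-5p: gGGUGGGGauuuguugcauuac
miR-19b-1-5p: aGUUUUGCagguuugcauccagc
miR-19b-2-5p: aGUUUUGCagguuugcauuuca

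The 5p arms of both miR-92a copies differ at 6 of 22 positions, with no shared run longer than 6 bases, whereas the 3p arm is the same in both. The loci named miR-92a-1-5p and miR-92a-2-5p nevertheless had equal counts in 6 of 6 libraries. The 5p arms of both miR-19b copies share their first 18 bases and then differ at 4 positions, the 3p arm is again the same, and the counts were equal in 6 of 6 libraries. Over the whole table, 6 pairs of loci had copies with different 5p arms and 1 shared 3p arm, and all 6 pairs had equal counts in every library, with no tolerance. For miR-19b and miR-92a the arm in the locus name is therefore not taken as the arm counted, and their reads cannot be assigned to chromosome 13 or X. miR-19a has no copy on chromosome X to compare, so which of its arms was counted was not checked. The locus names are kept below as the table gives them.

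In untreated MCF10A cells the cluster took 2.43% ± 0.229 of all counts (SD, n = 3), and 3 of its 6 loci carried nearly all of it. The levels in CPM (counts scaled to a common total) differed widely between hairpins of the same transcript. miR-92a-1-5p made up 41.5% ± 5.73 of the cluster's counts, miR-20a-5p 34.7% ± 3.64 and miR-17-5p 20.8% ± 1.35 (SD, n = 3). The other three, miR-19b-1-5p, miR-19a-5p and miR-18a-5p, made up 1.67% ± 0.509, 0.739% ± 0.153 and 0.638% ± 0.268.

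miR-92a-1-5p, ranked 17 among the 947 loci, had 9719, 10647 and 9616 CPM in untreated replicates 1, 2 and 3. miR-20a-5p, ranked 22, had 7987, 7082 and 10380 CPM in the same libraries. The ranges of miR-92a-1-5p and miR-20a-5p overlapped, so these loci, next to each other in level within the cluster, did not differ beyond their spread, and miR-20a-5p was the higher in replicate 3. miR-17-5p, ranked 31, had 4977, 4347 and 5885 CPM, below every value of miR-20a-5p. The ratio of miR-20a-5p to miR-17-5p, which share a seed, was 1.67 ± 0.0857 (SD, n = 3) and lay between 1.60 and 1.76 in the 3 libraries.

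miR-19b-1-5p had 439, 246 and 551 CPM in untreated replicates 1, 2 and 3, in every library above miR-19a-5p, which had 207, 130 and 204 CPM. miR-18a-5p was at 136, 91.0 and 250.0 CPM. The range of miR-18a-5p reached into that of miR-19b-1-5p, but within each library miR-19b-1-5p was the higher. It also exceeded miR-19a-5p by 1.89 to 2.71 times within each. The ranges of miR-19a-5p and miR-18a-5p overlapped, and miR-18a-5p was the higher in replicate 3 alone, so their order is not set by these libraries. miR-17-5p stood 23.5 to 47.8 times above miR-18a-5p, although their hairpins are neighbours separated by 62 bases. Levels of different miRNAs in small RNA libraries also reflect how well each sequence is ligated and amplified, which was not measured here.

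**Figure D1:**
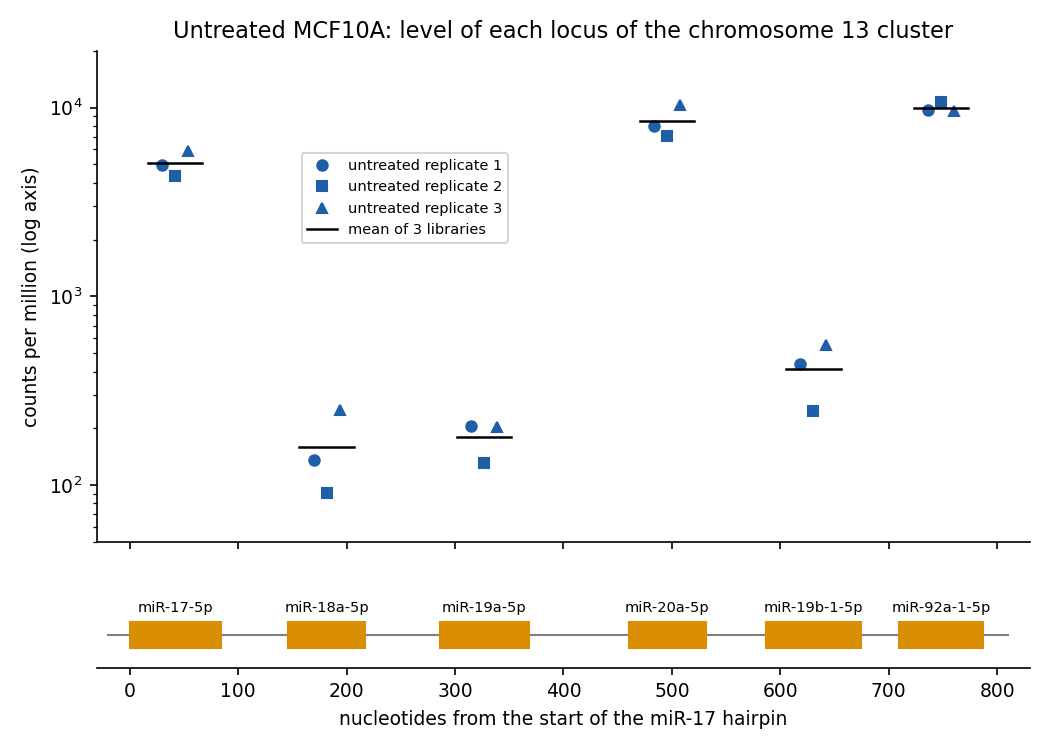
CPM (counts scaled to a common total, log axis) of the 6 chromosome 13 loci in each untreated library, plotted at the hairpin's distance in nucleotides from the start of the miR-17 hairpin; symbols are libraries, lines are means of 3 and boxes are hairpins to scale. miR-17-5p, miR-20a-5p and miR-92a-1-5p sit between 4347 and 10647 CPM, and the 3 other loci between 91.0 and 551 CPM.

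The paralog clusters on chromosomes 7 and X share seeds with the chromosome 13 cluster, on chromosome 7 only those of miR-17 and miR-92. The chromosome 13 loci were therefore set beside them within each untreated library. The chromosome 13 cluster held 3.06 ± 0.442 times the counts of the miR-106b-25 cluster on chromosome 7 (SD, n = 3). That ratio was 161 to 228 against the summed counts of miR-106a-5p, miR-20b-5p and miR-363-5p, the chromosome X loci whose counts are not those of a chromosome 13 locus. Both ratios give every miR-19b and miR-92a read to chromosome 13. Such reads may come from chromosome X, so both may be too high, and the second is no ratio of the whole clusters. miR-17-5p exceeded miR-106a-5p by 48.1 to 65.4 times, although their sequences differ at the first base alone (C1A). Reads of the 22 bases that miR-17-5p and miR-106a-5p share match both, and how the authors counted them is not given in the sources used here, so their split is uncertain. miR-20a-5p exceeded miR-20b-5p by 233 to 314 times. miR-93-5p, which carries the miR-17 seed on chromosome 7, had 3257, 3322 and 3431 CPM, and miR-17-5p exceeded it by 1.31 to 1.72 times. miR-92a-1-5p exceeded miR-25-5p, which has the miR-92 seed on its 3p arm, by 2.51 to 2.82 times. These are descriptions of 3 libraries, with no test.

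miR-92a-1-5p varied least between untreated libraries, with a coefficient of variation (SD over mean) of 5.68%, and miR-18a-5p varied most, with 51.5%. Among the 237 loci that reached 50 counts in all 3 untreated libraries the median was 18.9% (quartiles 10.5 and 30.1%), and 95.8% of them varied no more than miR-18a-5p. miR-17-5p, miR-18a-5p, miR-19a-5p, miR-20a-5p and miR-19b-1-5p were each lowest in replicate 2, by 0.21 to 0.68 below the mean on the log2 scale, while miR-92a-1-5p was highest there, by 0.09. Of the 237 loci 58.2% were lowest in replicate 2 and 27.8% were highest there, so the low values were shared with most of the table and are not particular to the cluster. The relatives did not follow their seeds, with miR-32-5p, miR-20b-5p and miR-106a-5p lowest in replicate 2 miR-25-5p, miR-106b-5p and miR-92b-5p highest there, and miR-93-5p near its mean (-0.0060). The cluster's makeup moved with this, and the share of miR-17-5p and miR-20a-5p in their sum with miR-92a-1-5p was 57.2, 51.8 and 62.8% in replicates 1, 2 and 3.

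**Figure D2:**
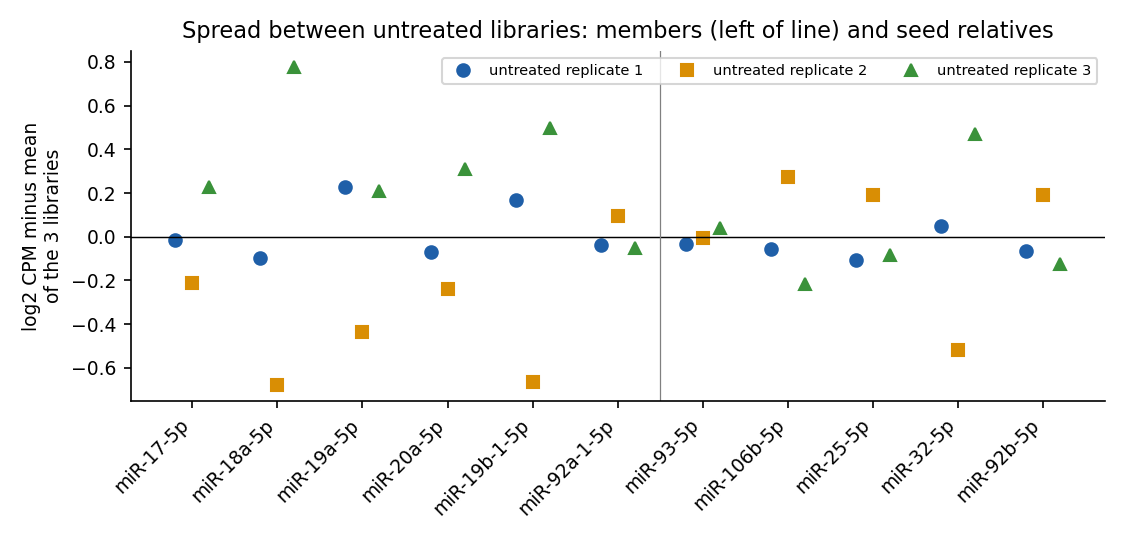
Log2 CPM of each locus in an untreated library minus its mean over the 3 untreated libraries; the 6 cluster loci are left of the grey line and 5 loci with related seeds are right of it. Replicate 2 (squares) lies below 0 for 5 of the 6 cluster loci, and above 0 for miR-92a-1-5p (0.09), miR-106b-5p, miR-25-5p and miR-92b-5p.

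After withaferin A, miR-92a-1-5p was the one cluster locus with any count. The cluster's share of counts was 2.35, 2.25 and 2.69% in untreated replicates 1, 2 and 3, and 0.239, 0 and 1.47% in withaferin A replicates 1, 2 and 3, which held 1, 0 and 5 counts. Each withaferin A library lay below each untreated one. The mean difference was -1.86 percentage points (exact two-sided permutation p = 0.1, n = 3 against 3, the smallest p this design can give). Summed, the cluster had 6 of 1188 counts against 28.9 expected from the untreated share, a 4.81-fold lower share (exact Clopper-Pearson 95% limits 2.22 to 13.1, counting error only). The 1188 counts include equal counts at copies of the same miRNA, which are not separate reads, so these limits are approximate. Without withaferin A replicate 3 the treated mean went from 0.570 to 0.120%.

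The members were then read in the edgeR quasi-likelihood test over all 303 loci that passed the filter on low counts, with TMM scaling (trimmed mean of M values), where all 6 cluster loci were tested and 3 were called lower (miR-17-5p, miR-20a-5p and miR-92a-1-5p, Benjamini-Hochberg adjusted p under 0.05). Of all tested loci, 16.8% were called lower, 0.66% higher and 17.5% in either direction. On simulated data at the deposited depths the fits recovered few known changes and also called loci that had not been changed. Every call and adjusted p from these fits, here and below, carries that limit. With library totals edgeR called 1 of the 6 lower (3.63% of all tested), with RLE factors 3 (21.1%), and DESeq2 called 3 (26.5% of loci with an adjusted p). The 3 called loci are the 3 above the floor, and among the 52 loci above the floor 80.8% were called lower, so the cluster's 3 of 3 is near the background for loci deep enough to be read. The median ratio of the treated to the untreated share was -1.01 on the log2 scale for these 3 and -1.01 for the 52, with loci at 0 set at the floor. Of the 3 loci 2 were at 0, and of the 52 loci 24 were. The median of the 3 is thus the floor over the untreated share of miR-17-5p, and the match of the medians cannot show that the falls were alike. 5 of the 6 cluster loci had every untreated library above every withaferin A library, as had 72.7% of all loci. For the loci above the floor this held for 2 of 3, and for 75% of the 52.

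miR-20a-5p was counted 20534, 18523 and 19263 times in untreated replicates 1, 2 and 3 and 0, 0 and 0 times after withaferin A. At the untreated share of 0.848% ± 0.170 (SD, n = 3), 10.1 counts were expected over the 3 withaferin A libraries. That share was 3.36 times the floor of 3 counts over the group and above the 0.310% limit for 0 counts. miR-20a-5p passed in edgeR (adjusted p = 0.00995, 0 counts in 3 of 3 libraries). In withaferin A replicate 3 alone, 3 counts make up 0.882%, above the untreated share. It also passed with library totals in place of TMM scaling (adjusted p = 0.0428).

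miR-17-5p was counted 12797, 11371 and 10922 times in untreated replicates 1, 2 and 3 and 0, 0 and 0 times after withaferin A, where 6.02 were expected from its share of 0.507% ± 0.0773 (SD, n = 3). That share was 2.01 times the same floor and above the 0.310% limit for 0 counts. miR-17-5p passed in edgeR (adjusted p = 0.0127, 0 counts in 3 of 3 libraries). With library totals it did not pass (edgeR adjusted p = 0.0665). No single withaferin A library could show a fall of miR-17-5p, since 3 counts in replicates 1, 2 and 3 make up 0.718, 0.698 and 0.882%, each above its untreated share.

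miR-92a-1-5p had 24987, 27848 and 17846 counts in the untreated libraries, or 0.972, 1.06 and 0.962% of counts, and 1, 0 and 5 counts after withaferin A, or 0.239, 0 and 1.47%. The groups overlapped, since withaferin A replicate 3 lay above all 3 untreated libraries and the other two lay below them. Its 6 summed counts, against 11.9 expected, gave a 1.98-fold lower share, with exact 95% limits (0.912 to 5.39) that include no difference. edgeR called it lower with TMM scaling (log2 fold change -2.30 ± 0.57, SE, adjusted p = 0.0263). That call rests on the scaling, since the TMM factors were 0.767, 1.21 and 3.32 in withaferin A replicates 1, 2 and 3. It did not pass with library totals (-0.96, edgeR adjusted p = 0.741) and was -4.87 without withaferin A replicate 3 (edgeR adjusted p = 0.00144).

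**Figure D3:**
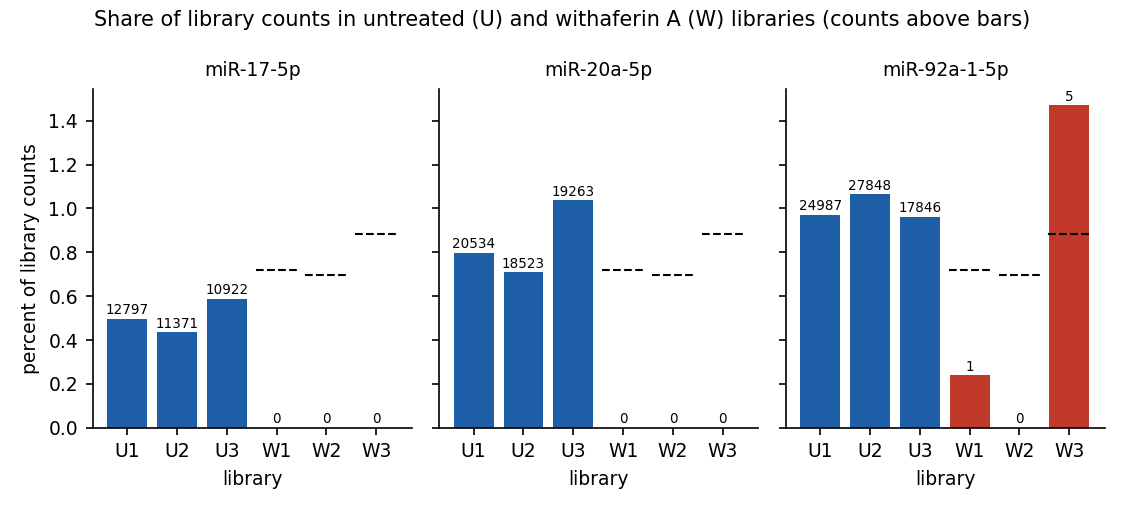
Percent of library counts for miR-17-5p, miR-20a-5p and miR-92a-1-5p in untreated (U1 to U3) and withaferin A (W1 to W3) libraries, with the number of counts above each bar; dashed lines mark the share that 3 counts make up in each withaferin A library. miR-17-5p and miR-20a-5p are at 0 in W1 to W3, and miR-92a-1-5p is at 1.47% in W3, above all untreated libraries.

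miR-18a-5p, miR-19a-5p and miR-19b-1-5p could not be read for a fall after withaferin A. All were at 0 in the 3 libraries, and their untreated shares of 0.0159, 0.0180 and 0.0412% gave 0.189, 0.214 and 0.490 expected counts. None passed in edgeR (adjusted p = 0.792, 0.688 and 0.495), and no fold is given, since both groups lie under the floor. A difference in the miR-18 or miR-19 seeds was thus not detectable at this depth.

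The split between seeds within the cluster does not depend on library scaling. miR-17-5p and miR-20a-5p together made up 57.3% ± 5.54 (SD, n = 3) of their sum with miR-92a-1-5p in untreated libraries. After withaferin A they made up 0 of 6 counts (exact Clopper-Pearson 95% limits 0 to 45.9%, counting error only), where 3.44 were expected. The interval lies below the lowest untreated library (51.8%), but 5 of the 6 counts come from withaferin A replicate 3, none from replicate 2, and without replicate 3 only 1 count is left. The kits differ between the groups, and their part in this split was not tested.

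**Figure D4:**
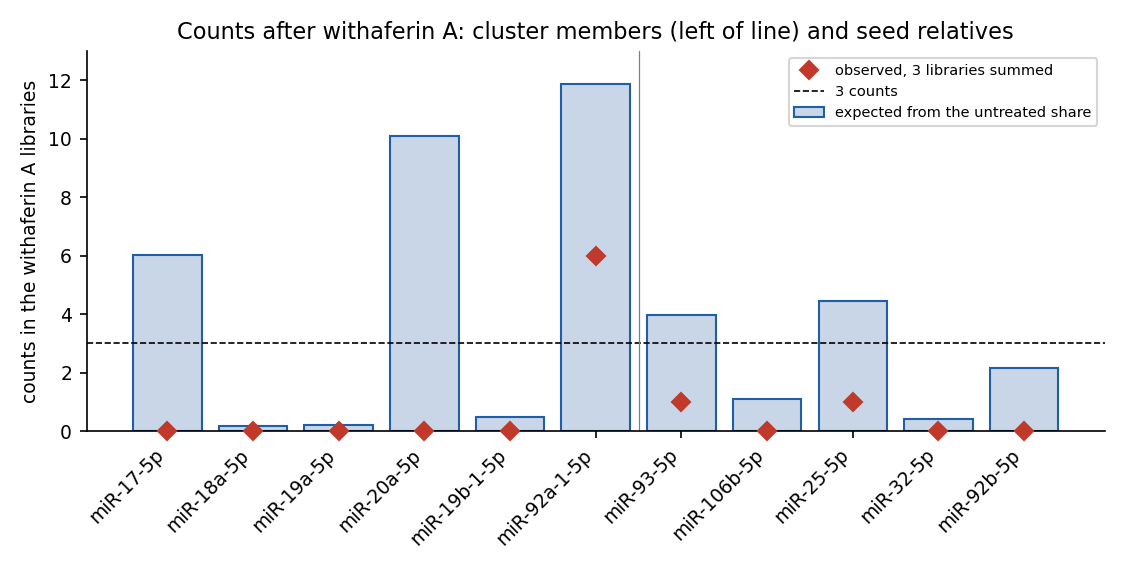
Counts in the 3 withaferin A libraries summed, observed (diamonds) and expected from the mean untreated share (bars), for the 6 cluster loci (left of the grey line) and 5 loci with related seeds; the dashed line marks 3 counts. miR-20a-5p and miR-17-5p have 0 counts where 10.1 and 6.02 are expected, miR-92a-1-5p has 6 where 11.9 are expected, and miR-18a-5p, miR-19a-5p and miR-19b-1-5p have expected values under 1.

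Among the paralogs off chromosome 13, 3 of 7 tested loci were called lower in edgeR and 0 higher, 1 of them the miR-92a-2-5p copy already described. All 3 lie above the floor, where 80.8% of all loci were called lower. The others were on chromosome 7. miR-93-5p was counted 8374, 8690 and 6368 times in untreated cells and 1, 0 and 0 times after withaferin A, where 3.96 were expected (log2 fold change -3.22 ± 0.93, SE, edgeR adjusted p = 0.0457). miR-25-5p had 8869, 11080 and 6500 counts and then 0, 1 and 0, where 4.43 were expected (-3.40 ± 0.88, SE, edgeR adjusted p = 0.0311). With library totals neither passed (edgeR adjusted p = 0.384 for miR-93-5p and 0.282 for miR-25-5p), nor with 1 locus per miRNA name (0.208 and 0.127) or a replicate block (0.265 and 0.197). miR-106b-5p, the remaining hairpin of that cluster, had 0 counts where 1.09 were expected and was not called (edgeR adjusted p = 0.13).

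By seed, 3 of 6 loci of the miR-17 group were called lower in edgeR (miR-17-5p, miR-20a-5p and miR-93-5p), 0 of 1 of the miR-18 group, 0 of 3 of the miR-19 group and 4 of 5 of the miR-92 group (both miR-92a copies, which are 1 measurement, miR-25-5p and miR-92b-5p). Over all tested loci 16.8% were called lower, and 80.8% of those above the floor, where all of these called loci but miR-92b-5p lie. miR-92b-5p was called at 0 counts with 2.14 expected, under the floor in untreated cells, so no fold is given (edgeR adjusted p = 0.0332). The loci of miR-25, miR-92b and miR-19a are named 5p, whereas the seed of their group lies on the 3p arm. Which arm was counted there was not checked, so their place in a seed group goes by the hairpin. With library totals 1 locus of the miR-17 group (miR-20a-5p) and 0 of the miR-92 group were called lower in edgeR. DESeq2 called 4 in each of these 2 groups. For the miR-92 group 0 were called at library totals, where miR-25-5p had an unadjusted p of 0.0496. The median fitted log2 fold change was -11.31 for the cluster and -8.94 for all 303 loci, but most of these fits are at loci with 0 counts, where the value follows the untreated level and is no measure of a fall.

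The loci most like each member were taken as those with the smallest mean absolute difference of log2(CPM + 1) over the 6 libraries, among loci with another miRNA name. For miR-20a-5p these were miR-27a-5p and miR-378a-5p, both at a difference of 0.052, and miR-151b at 0.15. For miR-17-5p they were miR-29a-5p (0.11) and miR-181a-5p at its copies on chromosomes 1 and 9 (0.12 each). miR-19b-1-5p was nearest to miR-342-5p (0.059) and to both copies of miR-29b (0.064), miR-19a-5p to miR-660-5p (0.024), miR-345-5p and miR-194-5p, and miR-18a-5p to miR-141-5p (0.079), miR-574-5p and miR-194-5p. These loci also had 0 counts after withaferin A, so in 3 of the 6 libraries the likeness is that of empty counts. miR-92a-1-5p had no close match, the nearest being miR-221-5p (0.53), let-7g-5p (0.79) and miR-34a-5p (2.02), each with 2 counts after withaferin A.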

How the data were processed

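Small RNA counts of 947 loci in 6 libraries of MCF10A cells were used as the authors deposited them, as raw whole-number counts. Tools named per the submitters' processing notes are cutadapt, Trim Galore and edgeR, on build GRCh38.p7; the aligner, the counting rule and any use of molecular identifiers are not given in the sources used here. The second deposited table is a normalized score, in which 1 count is worth 0.451 to 0.619 units in untreated and 698.0 to 780.0 units in withaferin A libraries; it served only for an alternative. Columns were given to groups by the sample names in each record. Withaferin A pairs differed by a chi-square of 1.73 to 2.39 per degree of freedom (11 or 12 loci), untreated pairs by 57.8 to 178. This value grows with depth, so the ranges do not compare the spread of the groups. No pair of columns was identical, and all columns were kept.

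The main test was the quasi-likelihood F test of edgeR 4.0.16 (R 4.3.3) with TMM factors, on the 303 loci that filterByExpr kept at a min.count of 10. Calls used an adjusted p (Benjamini-Hochberg, over all 303) under 0.05. SE is the absolute log2 fold change divided by the square root of F. Alternatives used library totals, RLE factors, no filter, DESeq2 1.42.0, limma 3.58.1 on log2(score + 1), 1 locus per name, loci above the floor, a replicate block and leaving out each library. SciPy 1.17.1 gave exact tests and intervals. The intervals cover counting error only, and those of a share take the library totals with all copies included. On simulated data the fits recovered known changes at equal depths; at the deposited depths they recovered few of them and also called loci that had not been changed. Sequences were matched by miRNA name in RefSeq (GRCh38.p14), all 6 members found. Named were all cluster loci, list loci called or at 100 CPM or more, and the 3 most alike loci. The members and lists were chosen with earlier results of these data known.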

Additional observations from a re-analysis of the deposited data

How the results depend on the processing

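The count of loci called in edgeR (53) was 17 with library totals, 31 with 1 locus per miRNA name, 25 with a replicate block and 631 in limma on the authors' score, and ranged from 6 to 59 with a library left out. Without untreated replicate 1, 2 or 3 only 10, 10 and 12 loci passed the filter, with 6, 6 and 9 called and no cluster locus among those tested. miR-20a-5p passed in all 11 alternatives that tested it (adjusted p 4.2e-09 to 0.0428). miR-17-5p passed in 10 of 11 and not with library totals (fitted -15.54). miR-92a-1-5p passed in 7 of 11, and not with library totals (-0.96), 1 locus per name (-1.42, adjusted p = 0.29), limma on the score (-6.39, adjusted p = 0.115) or a replicate block (-2.46, adjusted p = 0.152). miR-18a-5p (-7.43), miR-19a-5p (-7.70) and miR-19b-1-5p (-8.84) passed in limma on the score, where 1 count after withaferin A is worth at least 698.0 units, and in no other alternative. The fall in the cluster's summed share kept its direction, within 1 SD, in all 8 alternatives, from -2.31 to -1.57 percentage points with a library left out. Deviations of same-numbered libraries gave r = 0.043, -0.141 and -0.19 across 52 loci. Of these loci 24 had 0 counts after withaferin A, so the values cannot show whether the numbers pair the libraries. Depth after withaferin A limits every member, and kit and treatment cannot be told apart.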

Other observations

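The table holds 6 other loci with a miRNA name on chromosome 13. miR-16-5p, a miRNA known to repress cyclins and BCL2, was counted 5331, 2649 and 7760 times in untreated replicates 1, 2 and 3 and 4, 8 and 6 times after withaferin A. From its untreated share 2.88 counts were expected after withaferin A and 18 were found. Each withaferin A library lay above each untreated one in share, and how many of all loci do so was not counted. edgeR did not call miR-16-5p (adjusted p = 0.26). Nor was it called with library totals (edgeR unadjusted p = 0.00769, adjusted p = 0.0825) or with 1 locus per miRNA name (edgeR unadjusted p = 0.00622, adjusted p = 0.0509). Its copies on chromosomes 3 and 13 share reads. miR-15a-5p, from the same hairpin pair, had 38.6 to 106 CPM in untreated cells and 0 counts where 0.0853 were expected, and miR-3613-5p had 112 to 161 CPM and 0 counts where 0.169 were expected, too few for a fall to be seen. Of these other loci 4 were tested in edgeR with TMM scaling and 0 were called (0 had an unadjusted p under 0.05 there), against 17.5% of all loci tested. DESeq2 also called 0 of them.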
